A study of Mus musculus with 8 samples.

Results

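Malat1 and Neat1, 2 long noncoding RNAs of nuclear bodies, were followed in chromatin and cytoplasm of mouse embryonic fibroblasts before and after heat shock. The genes were taken by their Ensembl identifiers, ENSMUSG00000092341 for Malat1 and ENSMUSG00000092274 for Neat1, from 28785 genes listed in at least 1 library. Both were listed in all 4 libraries. They were selected on their chromatin to cytoplasm RPKM ratios, before and after heat shock, so these ratios and their change are given as a description.

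The fibroblasts, matrix-producing cells cultured from embryos, had the genotype TSC2+/+ on a C57BL/6J background in every group. Unstressed cells received no heat shock, and stressed cells were held for 1 h at 42 °C and then left to recover for 3 h at 37 °C. The embryos' age and sex and the number of cultures are not given in the labels. A cytoplasmic extract and a washed chromatin pellet were taken from each condition and sequenced as 1 library each, so 4 libraries form 4 groups of 1. No difference has a replicate check, no test could be made, and every value describes these libraries. The soluble part of the nucleus was separated from the pellet by a urea buffer and was not analysed here, nor were 4 chromatin samples of an m6A immunoprecipitation and its input.

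Malat1 is made by RNA polymerase II from an intronless gene and gathers at nuclear speckles, the bodies that store splicing factors. Its 3′ end is cut by RNase P, which leaves a triple helix on the long RNA and releases a small tRNA-like RNA, mascRNA, that goes to the cytoplasm. Neat1 is the scaffold of paraspeckles, bodies that form beside speckles and hold RNA-binding proteins such as Sfpq and Nono. It is made as a short and a long form from the same start, and the long form builds the body.

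Both genes lie on mouse chromosome 19 (RefSeq annotation of GRCm38.p6), where Malat1 spans chr19:5795690-5802672 and Neat1 spans chr19:5824708-5845480. Both are annotated as lncRNA, Malat1 with 1 transcript and Neat1 with 2. The spans are 22035 bp apart. A 58-base gene for mascRNA is annotated inside Malat1, at chr19:5795924-5795981. How the authors counted reads from it is not given in the sources used here, and it was not measured apart from Malat1. Its length is within the range selected on the gel, and any of its reads counted to Malat1 would enter the Malat1 levels and every ratio made from them. Its part in the values was not tested. The gene lengths implied by the deposited values were 6983 bp for Malat1, equal to its RefSeq span, and 20771 bp for Neat1, whose RefSeq span is 20773 bp. The span of Malat1 is shared by 6 RefSeq genes, itself included, and that of Neat1 by none other. Among the listed genes, the implied length of Malat1 was found for 1 gene and that of Neat1 for 2, itself included.

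The Malat1 promoter is printed because the gene's level was compared across heat shock, and heat shock factors bind inverted repeats of the bases GAA. The window covers chr19:5802623-5802922 on the minus strand (RefSeq, GRCm38.p6), with 250 bases before the start in lower case and the first 50 transcribed bases in capitals.
Malat1 promoter: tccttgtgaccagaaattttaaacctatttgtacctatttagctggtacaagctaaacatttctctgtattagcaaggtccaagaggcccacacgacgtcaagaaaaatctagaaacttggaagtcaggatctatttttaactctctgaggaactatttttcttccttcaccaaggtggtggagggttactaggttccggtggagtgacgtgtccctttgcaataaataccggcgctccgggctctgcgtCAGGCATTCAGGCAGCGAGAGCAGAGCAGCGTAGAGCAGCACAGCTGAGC
Neither GAANNTTC nor TTCNNGAA, each of which reads the same on both strands, occurs in these 300 bases. Of 32851 promoter windows of this length, 7.86% hold the first, 8.52% the second and 15.1% at least 1 of them. G and C make up 47.0% of the Malat1 window, against a median of 52.7% over all windows. The promoter windows included none named Neat1, so its promoter was not searched.

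The library totals implied by the values ran from 8292312 reads in unstressed cytoplasm to 19536459 in chromatin after heat shock. The 10 genes with the most reads took 21.8% and 32.6% of the chromatin libraries, unstressed and heat shocked, and 75.9% and 79.8% of the cytoplasmic ones, so the levels of other genes depend on a few abundant RNAs. The values are RPKM, reads divided by gene length and by the library total. The implied lengths, 766722 bp for 1 of the genes compared below, were taken as whole gene spans with introns. Dividing by such a span gives a spliced RNA with few intron reads a lower RPKM than dividing by its exons would. The ranks by RPKM below set Malat1 and Neat1 against such genes, and the size of this effect was not tested. Whether reads in introns were counted is not stated in the sources used here. If they were, they are part of the ratios of spliced genes with which Malat1 and Neat1 are ranked. Genes with spans over 100 kb took 34.0% and 23.8% of chromatin reads, unstressed and heat shocked, and 7.91% and 6.52% of cytoplasmic reads. The median log2 chromatin to cytoplasm ratio in unstressed cells also differed by span class. It was 0.50 for spans over 5 to 20 kb and 1.71 for spans over 20 to 100 kb. The part of intron reads in these values was not tested. Intervals are exact 95% Clopper-Pearson intervals on reads unless stated, and they cover counting error only.

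Malat1 was among the highest RNAs of the chromatin pellet in both conditions. Its level was 1632 RPKM (209301 reads) in unstressed chromatin, 1179 RPKM (160839 reads) in chromatin after heat shock, 91.5 RPKM (5299 reads) in unstressed cytoplasm and 75.6 RPKM (5873 reads) in cytoplasm after heat shock. Both chromatin libraries were thus far above both cytoplasmic ones, and within each fraction the heat-shocked library was the lower. Malat1 took 1.14% of unstressed chromatin reads (1.13 to 1.14) and 0.823% after heat shock (0.819 to 0.827), the fourth most of any gene in both. It took 0.0639% and 0.0528% of cytoplasmic reads. By RPKM among all listed genes it stood at ranks 20 and 34 in chromatin and 118 and 125 in cytoplasm, unstressed and heat shocked. Among genes with spans over 1 kb it stood at rank 3 by RPKM in both chromatin libraries, and at ranks 18 and 23 in cytoplasm.

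Neat1 was lower than Malat1 in every library and had a different order over them. Its level was 131 RPKM (49887 reads) in unstressed chromatin, 202 RPKM (81804 reads) in chromatin after heat shock, 10.6 RPKM (1818 reads) in unstressed cytoplasm and 2.51 RPKM (581 reads) in cytoplasm after heat shock. The highest and the lowest value were both in heat-shocked cells, in opposite fractions. Neat1 took 0.272% of unstressed chromatin reads (0.269 to 0.274) and 0.419% after heat shock (0.416 to 0.422), against 0.0219% and 0.00522% of cytoplasmic reads. By reads it moved from rank 22 to rank 11 in chromatin and from rank 77 to rank 534 in cytoplasm. By RPKM among all listed genes it stood at ranks 61 and 77 in chromatin and 409 and 1090 in cytoplasm. By RPKM among genes with spans over 1 kb it was at rank 9 in both chromatin libraries and at ranks 198 and 735 in cytoplasm. RPKM here divides by the whole Neat1 span, so reads of the short and the long form cannot be told apart.

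**Figure D1:**
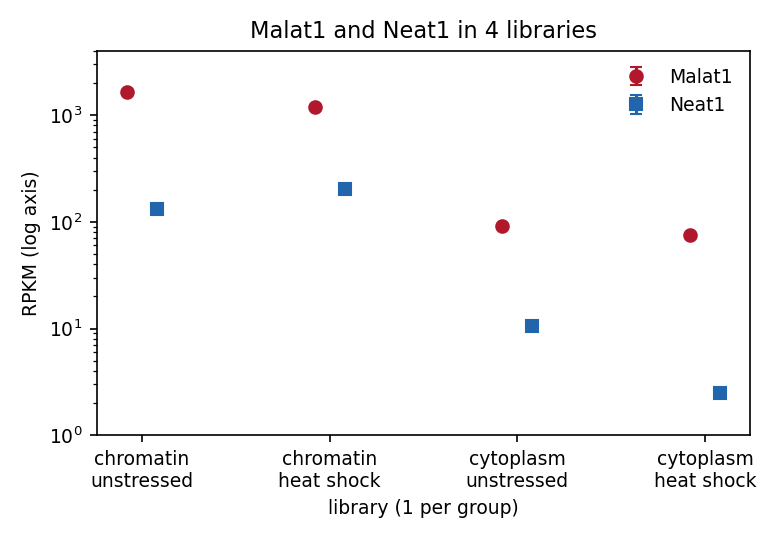
RPKM of Malat1 (circles) and Neat1 (squares) in the 4 libraries, on a log axis, with 95% counting intervals that are smaller than the symbols. Malat1 lies at 1632 and 1179 RPKM in chromatin and at 91.5 and 75.6 in cytoplasm, while Neat1 goes from 131 to 202 RPKM in chromatin and from 10.6 to 2.51 in cytoplasm.

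The level of Neat1 relative to Malat1 within a library does not depend on how libraries are scaled to each other. Since both are RPKM per span, the quantity is a ratio of levels per length. In chromatin it was 0.0801 (0.0794 to 0.0809) without heat shock and 0.171 (0.170 to 0.172) after it, a 2.13-fold higher ratio (2.11 to 2.16, normal approximation on the log of read counts). In cytoplasm it was 0.115 (0.109 to 0.122) without heat shock and 0.0333 (0.0305 to 0.0362) after it, a 3.47-fold lower ratio (3.14 to 3.83). In unstressed cells the ratio was thus 1.44-fold higher in cytoplasm than in chromatin (1.36 to 1.52), and after heat shock it was 5.14-fold higher in chromatin (4.72 to 5.60). The 2 differences ran in opposite directions, and the quotient of the chromatin change over the cytoplasmic change was 7.40 (6.69 to 8.19). The comparisons between fractions are the chromatin to cytoplasm ratios of Neat1 and Malat1 divided by each other. The quotient is likewise their changes of that ratio divided by each other. Both restate the ratios on which the genes were selected, so they are a description and not a separate result.

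**Figure D2:**
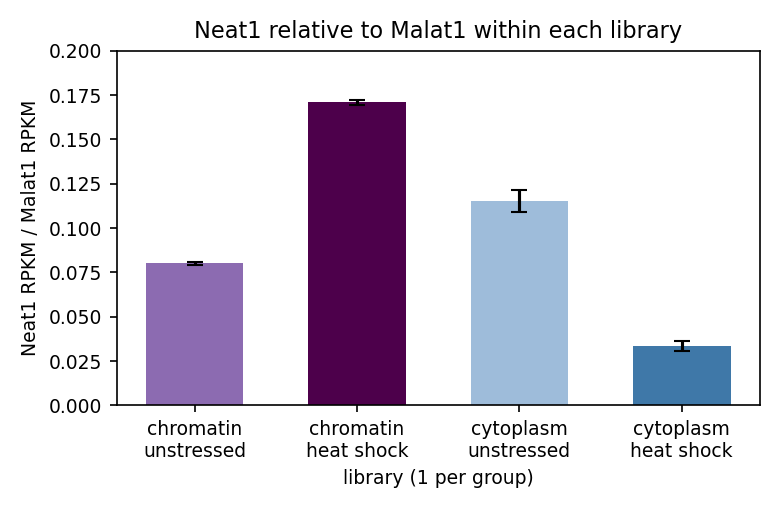
RPKM of Neat1 divided by that of Malat1 in each of the 4 libraries, with bars from 0 and 95% counting intervals. The ratio is 0.0801 and 0.171 in chromatin and 0.115 and 0.0333 in cytoplasm, unstressed and heat shocked, so its order between fractions turns round after heat shock. That order restates the chromatin to cytoplasm ratios on which the genes were selected.

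The chromatin to cytoplasm ratio was then set side by side for the 2 conditions. For Malat1 it was 17.8 (17.4 to 18.3) in unstressed cells and 15.6 (15.2 to 16.0) after heat shock. For Neat1 it was 12.4 (11.8 to 13.0) and 80.2 (73.9 to 87.2). Malat1 thus had the higher ratio of the pair in unstressed cells and Neat1 after heat shock, the same turn of order as above. The size of these ratios depended on the scale far more than on counting error. Over the 7 scales tried, the deposited one and 6 alternatives, they ran from 5.62 to 56.6 for Malat1 and from 3.78 to 39.3 for Neat1 in unstressed cells, and from 4.79 to 37.2 and 16.1 to 191 after heat shock. An RPKM ratio compares shares of 2 libraries and is not the share of a gene's molecules that lay in chromatin. In these bulk extracts, fewer cells with an RNA and less of it per cell cannot be told apart.

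The change of that ratio, heat shocked over unstressed, was 6.47-fold for Neat1 (5.89 to 7.11, normal approximation on the log of 4 read counts). It was made up of a 1.54-fold higher level in chromatin and a 4.20-fold lower level in cytoplasm. For Malat1 the ratio was 1.14-fold lower after heat shock (1.10 to 1.19). Most genes had a higher ratio after heat shock on the same scale. The median log2 change over 4473 genes with a mean of at least 1 RPKM was 0.70, with quartiles of 0.17 and 1.20, and 79.8% of these genes were above 0. The log2 change of Malat1, -0.19, was below that of 84.7% of these genes, and that of Neat1, 2.69, was above that of 97.2%.

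The ranks of the 2 genes among all genes moved apart accordingly. In unstressed cells 79 of 4512 genes had a higher chromatin to cytoplasm ratio than Malat1 and 182 a higher one than Neat1. After heat shock 184 of 4575 genes were above Malat1 and 3 above Neat1. Of the 1451 genes with spans over 20 to 100 kb, the class of Neat1, 38 were above Neat1 in unstressed cells and 0 after heat shock. Of the 1584 and 1585 genes with spans over 5 to 20 kb, the class of Malat1, 7 and 28 were above Malat1. On log2(RPKM + 1), the scale used for counting, both lncRNAs passed 2-fold toward chromatin in each condition, as did 32.4% of genes in unstressed cells and 45.8% after heat shock. In the other direction 11.7% and 6.93% of genes passed 2-fold. The shares toward chromatin moved with the setting. They were 47.9% and 62.4% with a pseudocount of 0.1 RPKM, and 73.9% and 75.8% at equal RPKM sums. With the median gene set to 0 they were 12.1% and 8.57%, where the order of the conditions is turned round. Without the 10 genes of highest mean RPKM in the sum they were nearly equal, at 48.2% and 47.6% (2175 and 2177 genes). Neat1 also passed a 2-fold change of the ratio toward chromatin, as did 16.5% of genes, and Malat1 did not pass it in either direction, against 4.52% of genes that passed it toward cytoplasm. The share toward chromatin was 30.5% with a pseudocount of 0.1 RPKM, 40.2% of the 752 genes with a mean of at least 5 RPKM, and 7.96% with the median gene set to 0.

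**Figure D3:**
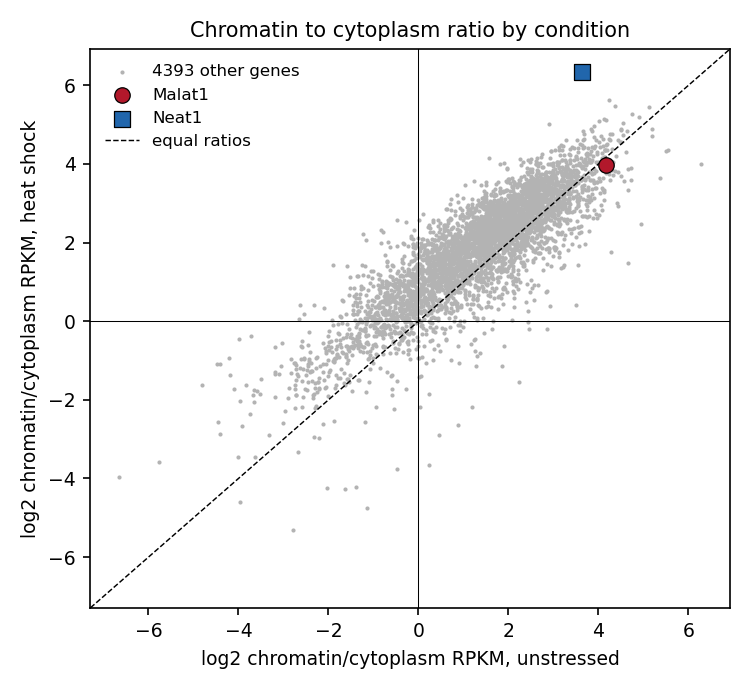
log2 of the chromatin to cytoplasm RPKM ratio in unstressed cells (x axis) and after heat shock (y axis) for 4395 genes with at least 100 reads in both unstressed libraries. The dashed line marks equal ratios. Malat1 (circle, 4.16 and 3.96) lies just below it, and Neat1 (square, 3.63 and 6.33) has the highest value of these genes on the y axis.

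Heat shock was also compared within each fraction, where the chromatin and the cytoplasmic comparison share no library. Neat1 in chromatin was 1.54-fold higher after heat shock (1.52 to 1.56), and Malat1 in chromatin was 1.38-fold lower (1.38 to 1.39). Neither passed 2-fold on the deposited scale, with or without a pseudocount of 1 RPKM. On log2(RPKM + 1), 10.4% of 4635 genes were at least 2-fold higher and 4.66% at least 2-fold lower. With a pseudocount of 0.1 RPKM the share at least 2-fold higher was 15.7%, and the lower share was not counted. Malat1 in chromatin did pass 2-fold at equal RPKM sums, where it was 2.16-fold lower without a pseudocount. It also passed with the 10 genes of highest mean RPKM left out of the sum, where it was 2.05-fold lower. These scales shift the chromatin ratios of all genes by the same factor, so the 21.6% of the 4635 genes below Malat1 passed too. The full share of genes at least 2-fold lower was not counted on these scales. On log2(RPKM + 1), the share of genes at least 2-fold higher was 26.9% of the 763 genes with a mean of at least 5 RPKM. The chromatin value of Neat1 was exceeded by 28.8% of the 4635 genes and that of Malat1 by 78.4%. The log2 ratio of Neat1, 0.62, was below the upper quartile of 0.74. That of Malat1, -0.47, was below the lower quartile of -0.37. Within their span classes 18.4% of genes were above Neat1 and 80.4% above Malat1. Of genes with at least 100 reads in both unstressed libraries, 17.2% were above Neat1 and 69.4% above Malat1. In cytoplasm Neat1 was 4.20-fold lower after heat shock (3.82 to 4.62) and Malat1 1.21-fold lower (1.17 to 1.26). Neat1 there was at least 2-fold lower, as were 2.44% of 4505 genes (3.4% were at least 2-fold higher), and 51 of these genes had a lower log2 ratio than its -2.07. The share of genes at least 2-fold lower was 9.57% with a pseudocount of 0.1 RPKM and 8.70% of the 759 genes with a mean of at least 5 RPKM. The median gene had a log2 ratio of -0.53 in cytoplasm, below the -0.28 of Malat1.

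On the deposited scale Neat1 had a higher chromatin level and a lower cytoplasmic level after heat shock, while at equal RPKM sums its chromatin log2 ratio was -0.017. Other genes were counted against both of its values on the deposited scale. Of the 4395 genes with at least 100 reads in both unstressed libraries, 755 had a higher chromatin log2 ratio than Neat1 and 25 a lower cytoplasmic one, and 0 others had both. Of the 4473 genes with a mean of at least 1 RPKM and reads in all libraries, 9 others had both. The limits are Neat1's own values, and the set of 4395 genes was chosen after the values were seen. Both counts are therefore a description. Any difference upward in chromatin with one downward in cytoplasm was common, at 46.5% of these 4473 genes, and lower in both fractions, as Malat1 was, were 37.7%.

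**Figure D4:**
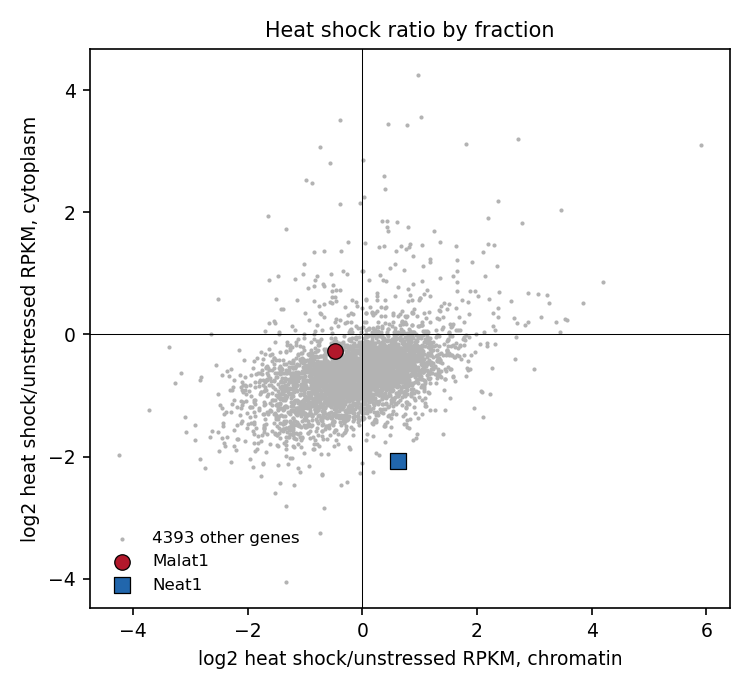
log2 of the heat-shocked to unstressed RPKM ratio in chromatin (x axis) and cytoplasm (y axis) for the same 4395 genes. Malat1 (circle) is at -0.47 and -0.28, near the bulk. Neat1 (square) is at 0.62 and -2.07, below the bulk, with 755 of these genes farther to the right.

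The direction of the single-fraction values depended on the scale. With each library rescaled to the same sum of RPKM, the log2 ratio of Neat1 in chromatin was -0.017 in place of 0.62, and with the 10 genes of highest mean RPKM left out of that sum it was 0.057. A higher chromatin level of Neat1 after heat shock is therefore not given by every scale. Malat1 in chromatin was below 0 on all 7 scales, from -1.11 to -0.25. In cytoplasm Neat1 was below 0 on all 7, from -2.30 to -1.50, while Malat1 turned to 0.25 with the median gene set to 0 and to 0.28 with the median gene of its span class set to 0. The change of the chromatin to cytoplasm ratio of Neat1 was above 0 on all 7 scales, from 2.00 to 2.69, and that of Malat1 was below 0, from -0.93 to -0.19.

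**Figure D5:**
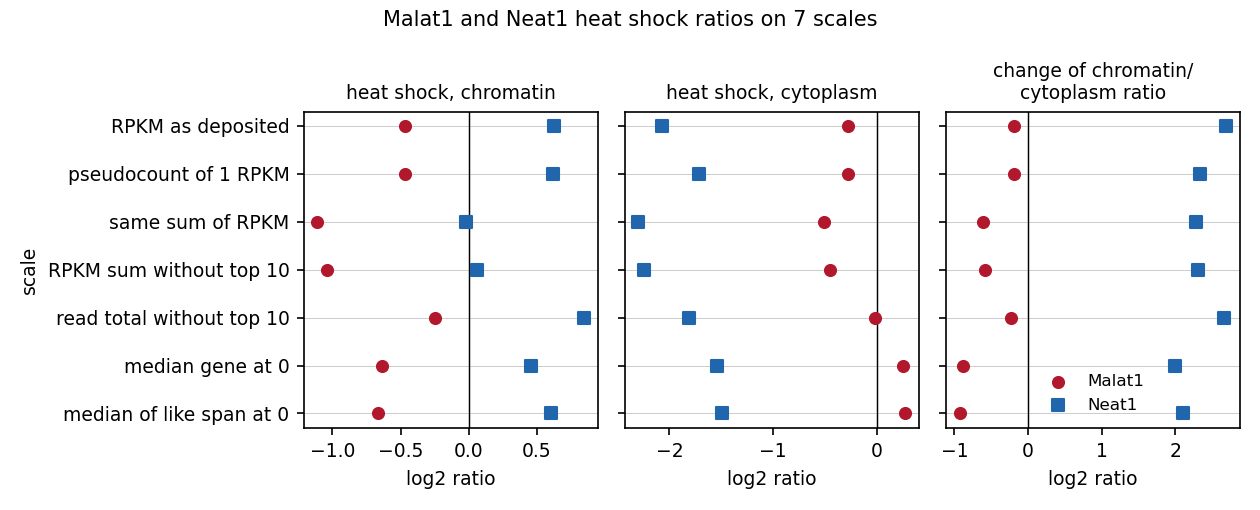
log2 ratios of Malat1 (circles) and Neat1 (squares) on 7 scales (rows) for heat shock in chromatin, heat shock in cytoplasm and the change of the chromatin to cytoplasm ratio. Neat1 reaches -0.017 in chromatin after rescaling to the same RPKM sum, while its change of ratio stays between 2.00 and 2.69.

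Genes with the most similar pattern were sought by the distance between log2 RPKM values centred over the 4 libraries, among 3663 other genes with at least 100 reads in every library. For Malat1 the nearest gene was ENSMUSG00000078671, with a span of 115193 bp, a distance of 0.23 and chromatin to cytoplasm ratios of 15.0 and 14.7. The first 5 had ratios of 14.5 to 16.9 in unstressed cells and 13.4 to 19.5 after heat shock, and spans of 37851 to 766722 bp. For Neat1 the nearest gene, ENSMUSG00000052942, was farther away, at a distance of 0.97, with a span of 421227 bp and ratios of 20.5 and 44.1. The first 5 had ratios of 14.4 to 26.6 and 29.8 to 44.1, so none reached the 80.2 of Neat1 after heat shock. Neat1 was the 971st nearest gene to Malat1, and Malat1 the 86th nearest to Neat1, at a distance of 1.75. The files do not pair these identifiers with names.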

How the data were processed

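Per the labels' protocols, RNA fragments of a short length class were cut from a gel. The authors deposited 1 RPKM value for each Ensembl gene with a read. Per the submitters' processing notes, cutadapt and STAR were used with build GRCm38. How reads were counted, by strand or when they match several genes, is not stated in the sources used here. Reads, lengths and totals were worked back from the RPKM values as the smallest whole numbers that give them, with a procedure tested on simulated data. Ratios are RPKM ratios without a pseudocount, and counts of genes use log2(RPKM + 1), a mean of at least 1 RPKM and 2-fold. No gene names could be matched (0 of 49997 RefSeq genes carry an Ensembl identifier), so the lists of paraspeckle, speckle, RNase P, lncRNA, heat shock, fibroblast and fraction marker genes and the neighbouring genes gave no values, and the fraction and cell labels could not be checked against markers. Named genes were the members and, for each, the 5 nearest patterns, of which the first is printed. The members and lists were chosen with earlier results of these data known. The set with 100 reads in both unstressed libraries, and the scales by span class and by reads, were chosen after the values were seen. Python 3.11.15, numpy 2.4.6, pandas 2.3.3, scipy 1.17.1 and matplotlib 3.10.9 were used.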

Additional observations from a re-analysis of the deposited data

Results flagged for a closer look

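Neat1 was higher after heat shock in chromatin, with a log2 ratio of 0.62, and lower in cytoplasm, with a log2 ratio of -2.07. The 1 library pair of each fraction moved in opposite directions, and the difference between the fractions was not tested. The same pair of signs was common, at 46.5% of 4473 genes with a mean of at least 1 RPKM. On the scale of equal RPKM sums the chromatin value of Neat1 was -0.017, so the opposition of signs is not present there.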

How the results depend on the processing

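No paired analysis was possible because each group holds 1 library, and no library could be left out. All values here are log2 ratios unless called counts, and the cause of each move was not tested beyond the change of scale itself. The signs that turned were Neat1 in chromatin (0.62) to -0.017 at equal RPKM sums, and Malat1 in cytoplasm (-0.28) to 0.25 with the median gene at 0 and 0.28 with the median of its span class at 0. At equal RPKM sums the chromatin to cytoplasm values were 5.82 (Malat1) and 5.30 (Neat1) unstressed and 5.22 and 7.58 after heat shock, Malat1 heat shock -1.11 in chromatin and -0.50 in cytoplasm, Neat1 -2.30 in cytoplasm, and the changes of ratio -0.61 and 2.28. Without the 10 highest RPKM genes in the sum these were 4.70, 4.18, 4.12, 6.48, -1.04, -0.45, -2.25, -0.58 and 2.30, and Neat1 in chromatin 0.057. With the median gene at 0 they were 3.19, 2.66, 2.32, 4.68, -0.64 for Malat1 and 0.46 for Neat1 in chromatin, -1.54 for Neat1 in cytoplasm, and -0.89 and 2.00. With the median of the span class at 0, a scale added after the data were seen, they were 3.65, 1.92, 2.71, 4.00, -0.66, 0.60, -1.50, -0.93 and 2.11. With the 10 genes of most reads left out of the totals, also added, they were 2.49, 1.96, 2.26, 4.62, -0.25, 0.85, -0.019 for Malat1 and -1.81 for Neat1 in cytoplasm. A pseudocount of 1 RPKM gave Neat1 3.51 and 5.85 for chromatin to cytoplasm, -1.72 in cytoplasm and 2.34 for the change, and the Neat1 to Malat1 ratio -3.00 and -4.45 in cytoplasm.

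The counts of genes at least 2-fold apart moved too. For chromatin over cytoplasm, 1460 genes in unstressed and 2096 in heat-shocked cells were counted. These became 2163 and 2853 with a pseudocount of 0.1, 3334 and 3469 at equal RPKM sums, and 546 and 392 with the median at 0. Without the 10 highest they were 2175 and 2177. At a mean of 5 RPKM they were 206 of 757 and 266 of 761 tested (27.2% and 35.0%). In chromatin, the 481 genes higher after heat shock became 728 with a pseudocount of 0.1, 294 at equal sums, 277 without the 10 highest and 205 at 5 RPKM, where only 763 genes were tested and the share rose from 10.4% to 26.9%. In cytoplasm, the 110 lower genes became 431 with a pseudocount of 0.1, 73 with the median at 0 and 66 at 5 RPKM (of 759, so the share rose from 2.44% to 8.70%). For the change of ratio, 737 became 1366, 434, 356, 423 and 302 with the pseudocount of 0.1, equal sums, the median at 0, without the 10 highest and at 5 RPKM (of 752, so the share rose from 16.5% to 40.2%). The depth limit is the 581 cytoplasmic Neat1 reads after heat shock, with 95% counting bounds of 2.31 and 2.73 RPKM.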
